A study of Mus musculus with 57 samples.

Results

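Transcript levels of 9 transcription factor genes of hepatocyte identity were followed in 57 mouse livers given 1 of 7 liver toxicants or a vehicle. The genes were Hnf4a, Prox1, Onecut1, Foxa2, Foxa3, Cebpa, Cebpb, Nr1i2 (encoding PXR) and Nr1i3 (encoding CAR). They were taken from a list of symbols, drawn up with earlier results of these data known, and all 9 were found by Ensembl ID among the 54307 genes of the table. The mice were wild-type C57BL/6JJcl males aged 6 weeks, acclimatised for 1 week, fasted for 12 h before dosing and killed 24 h after it. By gavage, 4 mice received alpha-naphthyl isothiocyanate (ANIT), 6 acetaminophen (APAP), 7 4,4'-methylene dianiline (MDA) and 5 thioacetamide (TAA), and the 13 gavage controls received methylcellulose (Ctrl). By the intraperitoneal route, 7 mice received carbon tetrachloride (CCl4) and 4 galactosamine (GAL), with 2 saline controls (CIP). By the tail vein, 7 mice received concanavalin A (ConA), a lectin that activates T cells, with 2 saline controls (CIV). The amount of each compound is not given in the sources used here. Corn oil is listed among the vehicles too, yet none of the 17 control mice received it, so for a compound given in corn oil the compound and the vehicle cannot be told apart.

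Hepatocytes are kept as hepatocytes by a small network of transcription factors that act on each other's genes as well as on the metabolic genes of the liver. HNF4A, a nuclear receptor, drives apolipoprotein, clotting factor and bile acid genes. FOXA2 and FOXA3 are forkhead factors that open chromatin at liver enhancers. ONECUT1 (HNF6) and PROX1 act early in liver development and stay on in the adult. C/EBPalpha holds the differentiated, gluconeogenic state, whereas C/EBPbeta is induced in the acute phase response and in regeneration. PXR and CAR sense foreign chemicals and induce cytochrome P450, conjugating and transporter genes.

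Total estimated counts per mouse ranged from 13826343 to 35075809 (median 21532116). Among the 9 genes, Onecut1 was the most thinly counted, with 6.59 to 380 estimated counts per mouse, and Hnf4a had 1176 to 7477. Levels are given below as CPM, estimated counts scaled to a common library size by the trimmed mean of M-values (TMM). They are compared between mice for one gene at a time and not between genes. The tissue label was checked against hepatocyte markers: Alb, Ttr, Apoa1, Asgr1 and Serpina1c were above 0 in all 57 mice, and Alb ranged from 9113 to 87033 CPM. The summed level of these 5 markers was 19231 to 29240 CPM with CCl4 and 25010 to 33064 CPM with GAL, below the lowest vehicle mouse (50203 CPM). In whole liver, fewer hepatocytes and less RNA per hepatocyte cannot be told apart.

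The proximal promoters of the PXR and CAR genes, whose fold changes had the same sign with all 7 compounds, and of Cebpa and Cebpb, which changed in opposite directions with ANIT and TAA, are shown here as the 250 bases before the annotated start, 5′ to 3′ on the gene's strand. They are RefSeq sequences on GRCm38.p6, an older build than that of the counts. Nr1i2 lies on the minus strand (chr16:38294825-38295074), and Nr1i3 (chr1:171213720-171213969), Cebpa (chr7:35119043-35119292) and Cebpb (chr2:167688665-167688914) lie on the plus strand. Capitals mark matches, on either strand, to the motifs described after the sequences.
Nr1i2: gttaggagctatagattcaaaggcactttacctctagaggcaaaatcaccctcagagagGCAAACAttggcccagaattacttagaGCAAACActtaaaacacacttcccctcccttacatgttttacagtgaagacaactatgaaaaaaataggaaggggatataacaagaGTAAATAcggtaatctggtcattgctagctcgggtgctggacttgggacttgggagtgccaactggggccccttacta
Nr1i3: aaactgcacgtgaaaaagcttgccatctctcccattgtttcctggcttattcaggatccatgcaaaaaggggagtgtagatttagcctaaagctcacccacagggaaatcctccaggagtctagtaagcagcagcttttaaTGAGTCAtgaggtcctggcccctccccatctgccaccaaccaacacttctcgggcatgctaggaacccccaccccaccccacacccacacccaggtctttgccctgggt
Cebpa: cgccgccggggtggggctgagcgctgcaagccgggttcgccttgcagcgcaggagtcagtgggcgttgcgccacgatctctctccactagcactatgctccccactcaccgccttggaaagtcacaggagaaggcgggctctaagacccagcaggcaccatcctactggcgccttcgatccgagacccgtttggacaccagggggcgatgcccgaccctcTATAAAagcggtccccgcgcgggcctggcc
Cebpb: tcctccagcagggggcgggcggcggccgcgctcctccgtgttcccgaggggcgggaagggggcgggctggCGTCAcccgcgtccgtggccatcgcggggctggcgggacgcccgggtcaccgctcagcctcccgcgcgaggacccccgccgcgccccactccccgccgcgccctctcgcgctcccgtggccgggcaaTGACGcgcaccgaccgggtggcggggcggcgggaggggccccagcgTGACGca

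Each motif was searched on both strands in these windows, and its share is over 32851 RefSeq promoters of the same length. Forkhead sites, the type that FOXA factors bind, were searched as TGTTTAC, as TGTTTGC and as TATTTAC, and Nr1i2 held 3 matches, on the opposite strand and none to TGTTTAC. At least 1 match was found in 9.73% of promoters. Nr1i3 held 1 AP-1 match (TGACTCA), found in 4.46% of promoters. Cebpa held a TATA box (TATAAA), found in 12.4%. Cebpb held 3 matches to the core of the cyclic AMP response element (TGACG), found in 17.8%. None of the 4 windows held a C/EBP site (TTGCNNAA), an HNF4 core (AAAGTCC), an HNF1 core (GTTAAT) or a nuclear receptor core (AGGTCA, also searched as AGTTCA), which 9.56%, 3.58%, 6.43% and 24.2% of promoters held. The C/EBP promoters were rich in CpG, with 22 in Cebpa and 41 in Cebpb, where 14.8% of promoters had 22 or more. Nr1i2 and Nr1i3 had 2 each, where 29.0% of promoters had 2 or fewer. These matches describe the letters of the windows only.

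Each compound was tested against the vehicle of its route to ask which factors shifted with each injury, with edgeR's quasi-likelihood test and a Benjamini-Hochberg adjustment over all genes tested. Across the 9 genes and 7 compounds, 31 of 63 tests had an adjusted p under 0.05 ("called" from here on), 11 higher and 20 lower. ANIT changed 6 of 9 genes, 5 higher and 1 lower, where 28.2% of all genes tested were called, 14.0% higher and 14.2% lower. APAP lowered 3 (31.8% of all genes called, 17.3% higher and 14.6% lower), and MDA changed 3, 2 higher and 1 lower (33.8%, 17.4% higher and 16.4% lower). TAA changed 7, 1 higher and 6 lower (50.5%, 26.4% higher and 24.0% lower). CCl4 lowered 5 (33.5%, 18.0% higher and 15.6% lower), and GAL lowered 1 (28.5%, 12.8% higher and 15.7% lower). ConA changed 6, 3 each way (34.2%, 16.8% higher and 17.3% lower). In this fit the shares of the 9 genes called were near the background with APAP and MDA, below it with GAL, and above it with the other 4 compounds. This order to the background depended on the fit, as CCl4 had 2 of 9 called with library total scaling (5665 of 15365 genes), and ConA had 5 of 9 against all 17 vehicle mice (68.0% of all genes). The 4 gavage compounds share the 13 Ctrl mice, and CCl4 and GAL share the 2 CIP mice, so these counts are not independent of each other.

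The median log2 fold change of the 9 genes was 0.75 with ANIT, 0.20 with MDA, -0.49 with APAP, -0.65 with TAA, -0.72 with CCl4, -0.51 with GAL and 0.03 with ConA. The median over all genes tested lay between -0.01 and 0.10 in these comparisons. Scaling to the library total instead moved the median of all genes by -0.22 on the log2 scale with ANIT, 0.16 with APAP, 0.43 with CCl4, 0.76 with GAL and -0.59 with ConA, and by less than 0.1 with MDA and TAA. Over all genes that scaling called 822 higher and 2651 lower with ANIT, 2937 and 1113 with APAP, and 1560 and 1947 with MDA. Counts were 3432 and 3009 with TAA, 4565 and 1100 with CCl4, 5515 and 844 with GAL, and 1101 and 3752 with ConA. Of the 31 calls, 18 held under that scaling and all 31 kept their direction. The 13 lost were Cebpb and Nr1i3 with ANIT, the 3 with APAP, Hnf4a with MDA, Hnf4a, Nr1i2, Nr1i3 and Prox1 with CCl4, Cebpa with GAL, and Foxa3 and Onecut1 with ConA. It added 2 calls, both higher: Foxa3 with CCl4 (0.61, adjusted p 0.0427) and Foxa2 with GAL (1.12, adjusted p 0.0269). The changes below are therefore relative to the bulk of genes. Statements that mice lay above or below every vehicle mouse are also on the TMM scale, and some do not hold by library total.

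**Figure D1:**
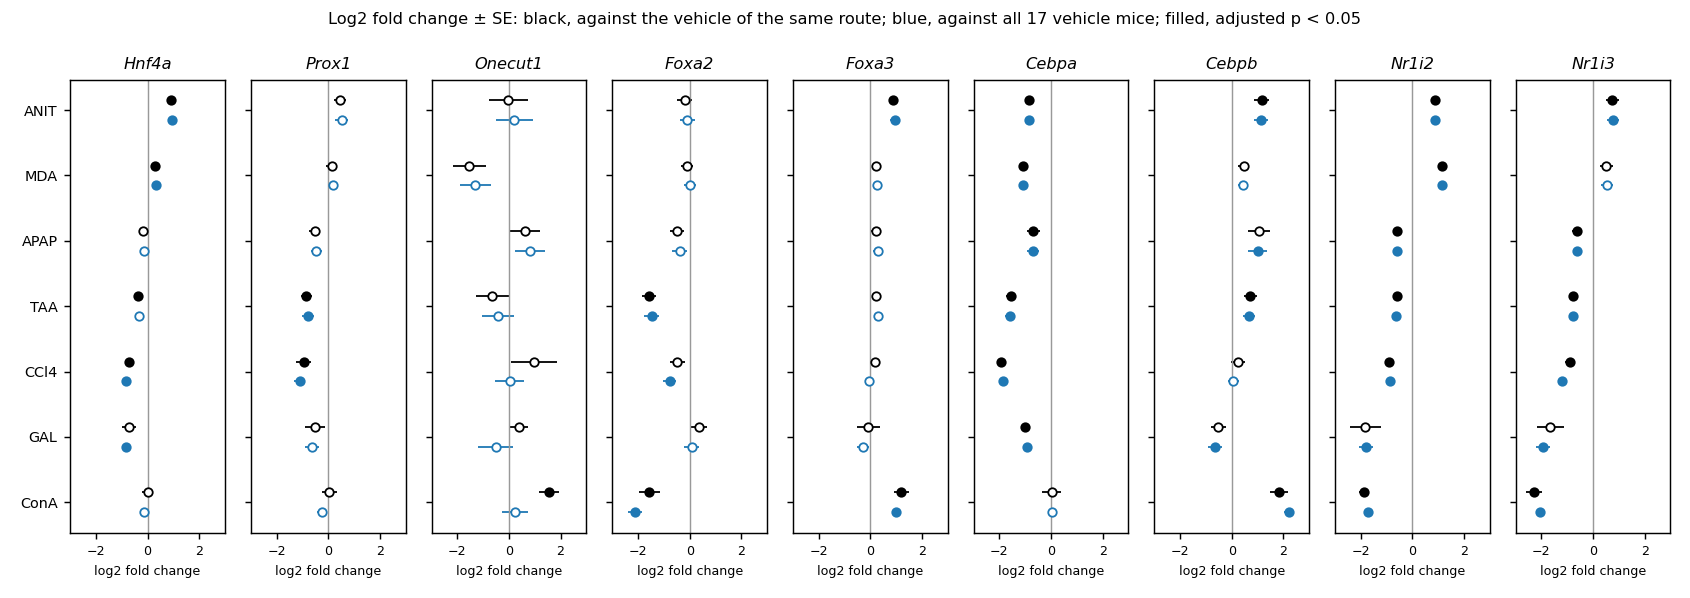
Log2 fold change (x axis) ± SE of each gene with each compound (rows), against the vehicle of its route in black and against all 17 vehicle mice in blue, with filled points for adjusted p under 0.05. Nr1i2 and Nr1i3 lie right of 0 with ANIT and MDA and left of 0 with the other 5 compounds, while Cebpa lies left of 0 with 6 of 7 compounds.

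Nr1i2, the gene of the xenobiotic receptor PXR, was higher with ANIT and MDA and lower with APAP, TAA, CCl4 and ConA. Its level was narrow in the vehicle mice, from 19.9 to 33.6 CPM in the 13 Ctrl mice (median 30.1), 33.0 and 28.0 CPM in the CIP mice and 31.8 and 30.8 CPM in the CIV mice. MDA mice had 39.9, 64.3 and 87.3 CPM (lowest, median, highest), and ANIT mice had 58.9, 51.0, 69.8 and 31.4 CPM. All 7 MDA mice and 3 of 4 ANIT mice lay above every vehicle mouse. Nr1i2 rose by 1.15 ± 0.12 on the log2 scale with MDA (adjusted p 6.33e-07) and 0.88 ± 0.16 with ANIT (adjusted p 0.000547).

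On the lower side, Nr1i2 measured 10.3, 20.7 and 22.2 CPM with APAP (lowest, median, highest), 20.1, 18.4, 18.7, 14.9 and 20.4 CPM in the TAA mice, and 12.99, 16.4 and 18.2 CPM with CCl4. With ConA it measured 6.49, 7.88 and 10.4 CPM, and in the 4 GAL mice 18.4, 4.38, 3.82 and 8.35 CPM. On the TMM scale every CCl4, GAL and ConA mouse lay below every vehicle mouse, whereas APAP and TAA overlapped the lowest Ctrl mice. By library total, CCl4 mouse 12 (555 of 25320560 estimated counts) and GAL mouse 2 (524 of 15729159) lay above Ctrl mouse 1 (272 of 20966181). The log2 fold change was -0.59 ± 0.15 with APAP (adjusted p 0.00500), -0.59 ± 0.12 with TAA (adjusted p 0.000584), -0.89 ± 0.13 with CCl4 (adjusted p 0.000751) and -1.88 ± 0.19 with ConA (adjusted p 0.000101). GAL gave -1.82 ± 0.61, which missed the threshold (adjusted p 0.0663). GAL mouse 2 had the highest Nr1i2 of that group, and without it the value was -2.47 (adjusted p 0.00474).

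Nr1i3, the gene of the receptor CAR, had fold changes of the same sign as Nr1i2 with all 7 compounds, not always past the threshold. It ranged from 67.4 to 140 CPM in Ctrl mice (median 100.2), with 94.5 and 76.4 CPM in CIP and 87.5 and 145 CPM in CIV mice. ANIT mice had 70.9, 251, 98.9 and 269 CPM, so 2 of the 4 lay above every vehicle mouse and the other 2 lay inside the Ctrl range. The log2 fold change of 0.75 ± 0.26 was called (adjusted p 0.0362), but not without ANIT mouse 2 (0.51, adjusted p 0.207) or mouse 4 (0.45, adjusted p 0.237). With MDA, 1 mouse had 412 CPM and the other 6 had 74.6 to 120 CPM. The difference there was 0.51 ± 0.25 (adjusted p 0.126) and was -0.02 without that mouse, MDA mouse 1.

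Nr1i3 fell with the same 4 compounds as Nr1i2. It measured 39.4, 62.2 and 102 CPM with APAP, 60.2, 55.5, 59.1, 58.0 and 57.1 CPM in the TAA mice, 30.8, 47.5 and 57.5 CPM with CCl4 and 13.2, 26.2 and 31.2 CPM with ConA. All TAA, CCl4 and ConA mice lay below every vehicle mouse, as did 4 of 6 APAP mice. Its fold changes were -0.63 ± 0.18 with APAP (adjusted p 0.0113), -0.77 ± 0.14 with TAA (adjusted p 0.000155), -0.89 ± 0.20 with CCl4 (adjusted p 0.00718) and -2.27 ± 0.31 with ConA (adjusted p 0.000502). The CCl4 call was lost without CIP mouse 7 (-0.71, adjusted p 0.0908). In GAL mice the level was 55.2, 18.3, 15.2 and 21.1 CPM, all below every vehicle mouse, and the fold change of -1.65 ± 0.51 was not called (adjusted p 0.0533) unless mouse 2, the 55.2 CPM animal, was left out (-2.23, adjusted p 0.00119). By library total, GAL mouse 2 (1575 of 15729159 estimated counts) lay above CIP mouse 8 (958 of 13826343). CCl4 mouse 11 (2132 of 27212163) and TAA mouse 8 (1418 of 23163799) lay above Ctrl mouse 1 (923 of 20966181). An opposite-strand neighbour that overlaps Nr1i3, Tomm40l, had a median of 8.07 CPM in Ctrl mice. Its median was 2.87 CPM with ConA, where Nr1i3 was low, but also 2.57 CPM with ANIT and 2.40 CPM with MDA, and it was 11.6 CPM with APAP. Whether strand was used in counting is not given in the sources used here, so reads shared by the overlapping genes cannot be told apart.

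Compounds given by one route were also tested against each other, which tests the differences themselves. Nr1i2 was higher with MDA than with APAP by 1.72 ± 0.22 on the log2 scale (adjusted p 0.000497), the 1 of the 9 genes called there, where 9.43% of all genes were called, 4.05% higher and 5.38% lower. It was lower with TAA than with MDA by -1.75 ± 0.18 (adjusted p 1.89e-05), lower with TAA than with ANIT by -1.47 ± 0.22 (adjusted p 0.00153) and lower with APAP than with ANIT by -1.43 ± 0.27 (adjusted p 0.0173). The last was lost without ANIT mouse 2 (adjusted p 0.0582) or 3 (adjusted p 0.0544) and with library total scaling (-1.04, adjusted p 0.0715). Between MDA and ANIT Nr1i2 differed by 0.27 ± 0.23 (adjusted p 0.718), and between TAA and APAP by -0.02 ± 0.21 (adjusted p 0.968). Nr1i3 was lower with TAA than with ANIT (-1.53 ± 0.36, adjusted p 0.0119) and than with MDA (-1.30 ± 0.39, adjusted p 0.0214). The MDA difference was -0.77 without MDA mouse 1, and still called.

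Target genes of PXR and CAR were counted from a list of 13. With ANIT 8 rose and none fell, and with MDA 9 rose and none fell, with list medians of 0.68 and 0.85 on the log2 scale against -0.01 and 0.03 for all genes. The largest rises with MDA were in Abcb1a, which encodes an efflux pump (4.13 ± 0.43), Cyp2b10, the classical CAR target (3.25 ± 0.21), Por, the electron donor of the P450 enzymes (1.68 ± 0.19), and Cyp3a11, the classical PXR target (1.58 ± 0.26). With ANIT, Abcb1a rose by 2.79 ± 0.60, Cyp2b10 by 2.12 ± 0.37, the haem synthesis gene Alas1 by 1.83 ± 0.23 and Por by 1.77 ± 0.20.

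The same list went the other way with APAP, where none rose and 9 fell (median -1.50), and with TAA, where 3 rose and 9 fell (median -0.83). Cyp2c29 changed by -3.05 ± 0.55 on the log2 scale with APAP and by -2.97 ± 0.19 with TAA, and Cyp2c55 by -2.89 ± 0.39 with APAP and -3.22 ± 0.33 with TAA. CCl4 raised 2 and lowered 7, GAL raised 1 and lowered 6, and ConA raised 2 and lowered 4. The largest single value was Cyp2c55 with ConA (-6.01 ± 0.66). Library total scaling left the APAP and TAA counts as they were, gave 6 higher with ANIT and 8 higher with MDA and none lower in either, and turned the GAL median from -0.59 to 0.16 with 3 higher and 4 lower. It gave 1 higher and 9 lower with ConA. Cyp2b10, higher with MDA and ANIT, fell with GAL (-3.20 ± 0.32), and Abcb1a was among the 3 that rose with TAA (1.94 ± 0.31).

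**Figure D2:**
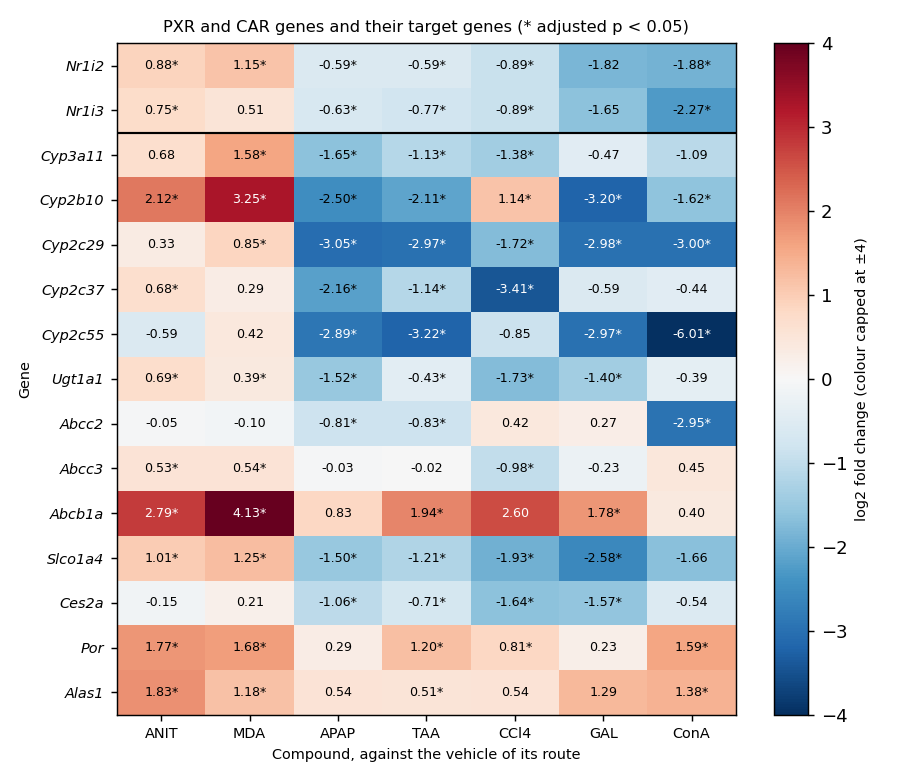
Log2 fold change of Nr1i2, Nr1i3 and 13 target genes of PXR and CAR (rows) with each compound against the vehicle of its route (columns), with an asterisk for adjusted p under 0.05 and colour capped at ±4. The ANIT and MDA columns hold 8 and 9 called rises and no called fall, and the APAP column holds 9 called falls and no called rise.

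Cebpa, which sustains the differentiated hepatocyte, was lower with every compound except ConA. Ctrl mice had 97.0, 113.6 and 167 CPM (lowest, median, highest), CIP mice 122 and 139 CPM, and CIV mice 160 and 74.2 CPM. The lowest group medians were with CCl4, at 28.0, 31.5 and 40.3 CPM, and in the TAA mice, at 68.0, 27.2, 29.2, 33.8 and 35.01 CPM. All CCl4, TAA and GAL mice lay below every vehicle mouse on the TMM scale. By library total, GAL mouse 2 (1729 of 15729159 estimated counts) lay above Ctrl mouse 1 (1676 of 20966181). Cebpa changed by -1.92 ± 0.14 on the log2 scale with CCl4 (adjusted p 1.67e-05) and -1.56 ± 0.20 with TAA (adjusted p 1.98e-06).

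With the other 4 compounds that lowered Cebpa the change was smaller. MDA mice had 42.5, 52.2 and 94.6 CPM, ANIT mice 67.4, 74.2, 45.6 and 77.9 CPM, GAL mice 60.6, 71.5, 63.5 and 62.0 CPM, and APAP mice 18.7, 66.9 and 129 CPM. MDA and ANIT mice lay below every Ctrl mouse, whereas APAP mice overlapped the Ctrl range. The log2 fold change was -1.08 ± 0.14 with MDA (adjusted p 6.83e-06), -0.84 ± 0.14 with ANIT (adjusted p 0.000380), -1.01 ± 0.15 with GAL (adjusted p 0.00584) and -0.69 ± 0.26 with APAP (adjusted p 0.0462). The APAP call was lost without mouse 2, 4, 8 or 11 (adjusted p 0.0624 to 0.115), and the GAL call was lost with library total scaling (-0.24, adjusted p 0.314). With ConA, Cebpa measured 64.1, 118 and 154 CPM, a difference of 0.03 ± 0.36 from CIV (adjusted p 0.963). It turned to -0.61 (adjusted p 0.00408) against all 17 vehicle mice with library total scaling.

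Cebpb, the acute phase member of the pair, was higher with ANIT, TAA and ConA. Vehicle levels varied more than those of Cebpa, from 32.0 to 117 CPM in Ctrl mice (median 62.5), with 76.4 and 39.7 CPM in CIP and 66.8 and 92.9 CPM in CIV mice. ConA mice had 160, 284 and 357 CPM, all above every vehicle mouse, and the log2 fold change was 1.85 ± 0.35 (adjusted p 0.00283). ANIT mice had 53.4, 155, 198 and 146 CPM, 3 of them above every vehicle mouse, with 1.16 ± 0.30 (adjusted p 0.00853), a call lost without mouse 3 (0.93, adjusted p 0.0656). TAA mice had 124, 72.0, 87.2, 116 and 92.9 CPM, mostly inside the upper Ctrl range, with 0.72 ± 0.24 (adjusted p 0.0180), a call lost without mouse 1 (adjusted p 0.0653) or 7 (adjusted p 0.0554).

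For the other compounds Cebpb did not pass the test. APAP gave 1.05 ± 0.41 (adjusted p 0.0585), with 1 mouse at 455 CPM against 44.9 to 84.9 CPM in the other 5. Without that mouse, APAP mouse 1, the value was -0.06, and without mouse 2, 4, 6 or 11 it was called (adjusted p 0.0327 to 0.0417). MDA mice had 66.1, 79.7 and 107 CPM (0.47 ± 0.21, adjusted p 0.0864) and CCl4 mice 44.2, 67.8 and 86.6 CPM (0.25 ± 0.27, adjusted p 0.520). GAL had the lowest group median, with mice at 41.9, 38.9, 37.1 and 46.4 CPM, and the difference of -0.51 ± 0.29 from CIP was not called (adjusted p 0.213), except without CIP mouse 8 (-0.96, adjusted p 0.0467), and turned to 0.23 with library total scaling.

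Neutrophil marker transcripts were also compared. The summed level of S100a8, S100a9, Retnlg, Cxcr2 and Csf3r was 2.11 to 62.2 CPM in Ctrl mice (median 4.88), 158 to 825 CPM with TAA and 126 to 286 CPM with ConA. It was 14.7 to 47.6 CPM with ANIT, 25.3 to 40.7 CPM with GAL, 13.4 to 263 CPM with APAP, 8.54 to 132 CPM with MDA and 10.6 to 73.0 CPM with CCl4. Of those tested, 5 of 5 rose with TAA, 3 of 4 with ConA, 1 of 4 with ANIT, 4 of 5 with GAL, 3 of 4 with APAP, 2 of 4 with MDA and 2 of 5 with CCl4. Tmem189, which overlaps Cebpb on the opposite strand, had a median of 10.4 CPM in Ctrl, 19.3 CPM in ANIT, 26.6 CPM in TAA and 103 CPM in ConA mice. In groups where Cebpb was not called it was 23.4 CPM with APAP, 18.8 CPM with CCl4, 18.0 CPM with MDA and 10.2 CPM with GAL. The part of neutrophils or of shared reads in the Cebpb levels was not tested.

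**Figure D3:**
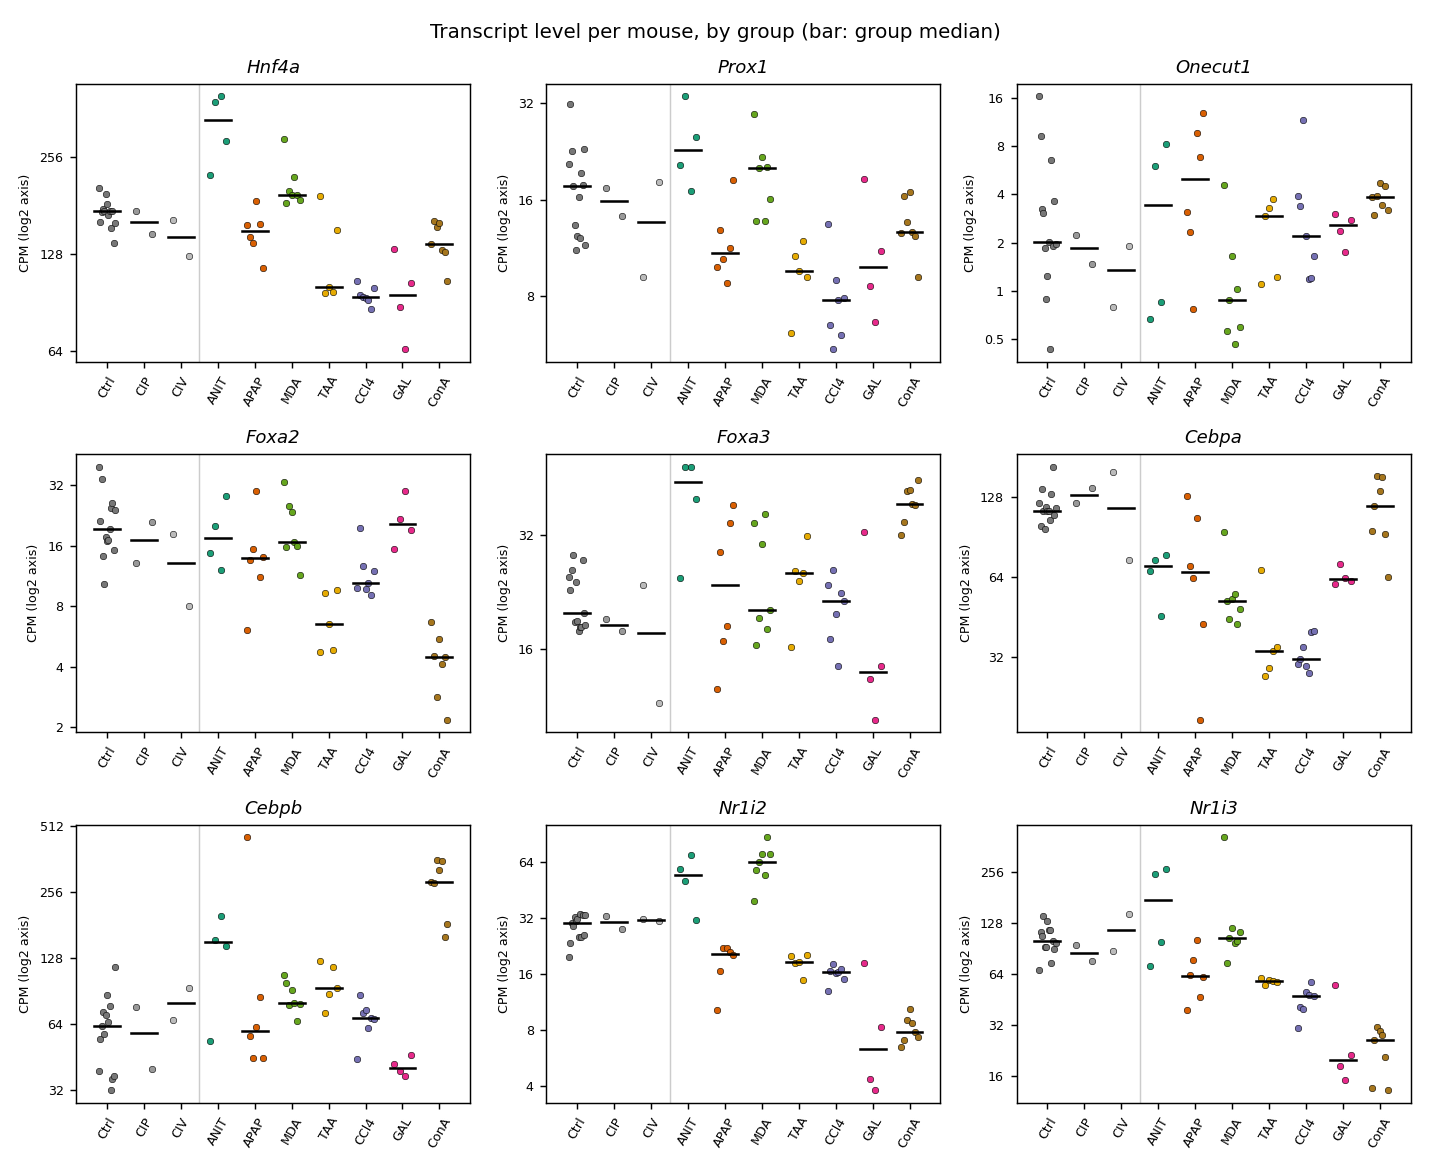
CPM of each gene (y axis, log2) in each of the 57 mice by group (x axis), with a bar at the group median and vehicle groups left of the line. Nr1i2 in the 7 MDA mice lies above every vehicle mouse, and Foxa2 in the 7 ConA mice lies below every vehicle mouse.

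The ratio of Cebpa to Cebpb within each liver does not depend on how libraries are scaled. It was 0.996 to 4.63 in Ctrl mice (median 1.74), 1.59 and 3.49 in CIP and 2.39 and 0.799 in CIV mice. Medians were 0.377 with TAA, 0.421 with ConA, 0.487 with CCl4, 0.506 with ANIT, 0.617 with MDA and 1.10 with APAP. Every TAA mouse (up to 0.546), ConA mouse (up to 0.582) and CCl4 mouse (up to 0.683) lay below the lowest vehicle mouse. GAL mice, at 1.34 to 1.84, stayed inside the Ctrl range. With CCl4 Cebpa was low and Cebpb was not called, and with ConA Cebpb was high and Cebpa was not called.

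**Figure D4:**
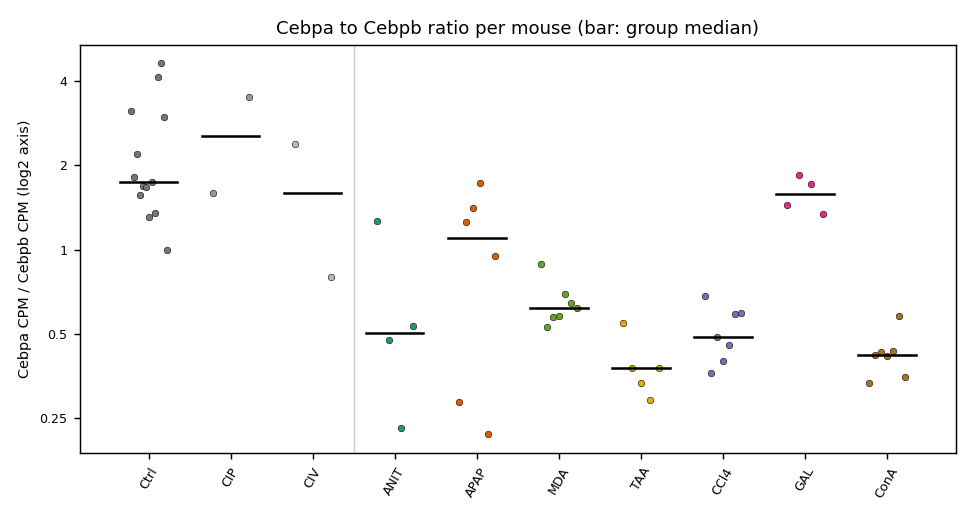
Ratio of Cebpa CPM to Cebpb CPM (y axis, log2) in each mouse by group (x axis), with a bar at the group median. TAA, CCl4 and ConA mice lie below every vehicle mouse, and the 4 GAL mice (1.34 to 1.84) lie inside the Ctrl range.

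Genes commonly taken as targets of the C/EBP factors were counted from fixed lists. Of 6 C/EBPalpha targets, among them gluconeogenic, glycogen and urea cycle genes, none rose with any compound against the vehicle of its route, and 1 fell with ANIT, 3 with APAP, 3 with MDA, 5 with TAA, 5 with CCl4, 6 with GAL and 2 with ConA. With library total scaling 2 fell with ANIT and 4 with ConA. G6pc, the last enzyme of glucose release, changed by -1.97 ± 0.41 on the log2 scale with ANIT, -4.31 ± 0.49 with TAA, -5.11 ± 1.09 with GAL and -6.77 ± 0.36 with ConA. The fall with ConA stood beside a Cebpa level that was not called. Pck1, the entry enzyme of gluconeogenesis, changed by -2.14 ± 0.37 with CCl4 and -4.71 ± 0.54 with GAL.

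The 7 acute phase genes that C/EBPbeta helps induce rose 6 of 7 with ANIT, 7 of 7 with APAP, 7 of 7 with MDA, 5 of 7 with CCl4 and 7 of 7 with ConA. With ConA, where Cebpb was highest, Lcn2 rose by 7.84 ± 0.41, Saa3 by 7.60 ± 0.68, Saa2 by 6.14 ± 0.54 and Saa1 by 5.61 ± 0.48. With APAP and MDA all 7 rose although Cebpb was not called. With TAA, where Cebpb was called higher, Lcn2 alone rose (3.99 ± 0.74) and the list median was -0.13. With GAL, where Cebpb had its lowest group median, all 7 fell (median -2.19), among them Saa2 (-3.59 ± 0.55) and Hp (-2.73 ± 0.32), and 3 of the 7 fell with library total scaling.

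Of 4 other C/EBP genes, 3 rose with ANIT, 2 with APAP, MDA, TAA, CCl4 and ConA, and 1 with GAL, and Cebpe, a factor of granulocyte maturation, fell with all 7 (-1.01 with MDA to -3.19 with ConA). None of the 4 fell with CCl4 under library total scaling. Cebpd, a second acute phase member, rose with ANIT (2.03 ± 0.36), APAP (3.06 ± 0.61), MDA (1.77 ± 0.30), TAA (2.82 ± 0.34), GAL (1.54 ± 0.44) and ConA (4.34 ± 0.43). Ddit3, which encodes the stress-induced factor CHOP, rose with 6 of 7 compounds and most with CCl4 (5.25 ± 0.34). Its symbol is carried by 2 IDs, and the lower-numbered ID was used, a choice made after its values were seen.

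Hnf4a, the nuclear receptor at the centre of the network, rose with ANIT and fell with CCl4. Ctrl mice had 139, 173 and 204 CPM (lowest, median, highest), CIP mice 174 and 148 CPM, and CIV mice 163 and 126 CPM. ANIT mice had 225, 378, 393 and 286 CPM, all above every vehicle mouse, and the log2 fold change was 0.90 ± 0.12 (adjusted p 3.66e-05). CCl4 mice had 86.6, 94.3 and 105 CPM, all below every vehicle mouse, with -0.72 ± 0.11 (adjusted p 0.000874), a call lost with library total scaling. By library total, CCl4 mouse 12 (3678 of 25320560 estimated counts) lay above Ctrl mouse 1 (2802 of 20966181). ANIT mouse 1 (3114 of 17660023) lay below Ctrl mouse 9 (3420 of 18010006) in the same way. The hepatocyte markers were low in the CCl4 mice. Taken as log2(CPM + 1) minus the mean of the same over the 5 hepatocyte markers, Hnf4a had a median of -4.60 with CCl4 and -4.29 with GAL, against -5.18 in CIP and -5.20 in Ctrl mice, so relative to these markers it was higher. On this scale medians with CCl4 were -7.08 for Nr1i2 (CIP -7.54), -8.03 for Prox1 (CIP -8.45) and -5.59 for Nr1i3 (CIP -6.09), also higher. With GAL, Cebpa had -4.80 (CIP -5.49), higher too. Cebpa with CCl4 (-6.12), Nr1i2 with GAL (-8.04) and Nr1i3 with GAL (-6.51, CIP -6.09) were lower. The markers are not separate from the factors' targets, since Ttr is in the HNF4A target list and Alb in the C/EBPalpha target list used here. These relative values were not tested.

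Smaller calls for Hnf4a rested on single mice. With MDA it measured 183, 195 and 291 CPM, and the difference of 0.30 ± 0.09 (adjusted p 0.0169) was not called without mouse 1, the 291 CPM animal (0.20, adjusted p 0.0516). TAA mice had 193, 96.8, 101, 97.7 and 152 CPM, with -0.37 ± 0.15 (adjusted p 0.0451), which was lost without mouse 3, 6 or 7 (adjusted p 0.123 to 0.147). GAL mice had 132, 87.4, 65.0 and 104 CPM, all below both CIP mice, yet the -0.73 ± 0.28 was not called (adjusted p 0.0915) unless mouse 2 was left out (-0.91, adjusted p 0.0231), and it turned to 0.04 with library total scaling. With APAP (115 to 186 CPM) and ConA (105 to 162 CPM) Hnf4a was not called, although ConA gave -0.80 (adjusted p 1.43e-06) against all 17 vehicle mice with library total scaling.

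Directly compared, Hnf4a was lower with TAA than with ANIT (-1.28 ± 0.27, adjusted p 0.00766), lower with APAP than with ANIT (-1.04 ± 0.20, adjusted p 0.0170) and lower with TAA than with MDA (-0.68 ± 0.20, adjusted p 0.0218). The APAP difference was lost without ANIT mouse 2 (adjusted p 0.0740) or 3 (adjusted p 0.0526), and the TAA and MDA difference without TAA mouse 3, 6 or 7 (adjusted p 0.0574 to 0.0635). The antisense gene Hnf4aos had a median of 4.82 CPM in Ctrl, 5.24 CPM in ANIT, 5.07 CPM in MDA, 3.54 CPM in TAA, 1.99 CPM in ConA, 1.78 CPM in APAP, 0.830 CPM in GAL and 0.723 CPM in CCl4 mice.

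Of 10 genes that HNF4A drives, 1 rose and 4 fell with ANIT, where Hnf4a itself was highest. Those that fell there included Cyp7a1, the rate-limiting enzyme of bile acid synthesis (-2.95 ± 1.06), and Ttr, the thyroid hormone carrier (-1.09 ± 0.14), while Mttp, which loads lipid onto apolipoprotein B, rose (0.46 ± 0.12). MDA raised 2 and lowered 4. The list fell without a single rise with APAP (6 lower), TAA (5), CCl4 (7), GAL (8) and ConA (6). With library total scaling 4 fell with APAP, 4 with GAL and 4 with ANIT, where none rose, and MDA had 1 higher and 6 lower. Cyp8b1, the sterol hydroxylase that sets the bile acid mix, changed by -5.25 ± 0.50 on the log2 scale with TAA and -7.05 ± 0.75 with GAL, and Apoa2 by -1.74 ± 0.11 with CCl4.

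The 2 FOXA genes moved in opposite directions with ConA. The mitochondrial share of counts was 14.6 to 39.3% in ConA mice, 6.79% in CIV mouse 7 and 25.4% in CIV mouse 8, and its part in the ConA differences was not tested. Foxa2 had 10.4, 19.5 and 39.5 CPM in Ctrl mice (lowest, median, highest), 13.1 and 21.1 CPM in CIP and 18.4 and 8.00 CPM in CIV mice. It was lowest with ConA, at 2.19, 4.46 and 6.69 CPM, below every vehicle mouse. The log2 fold change was -1.57 ± 0.40 (adjusted p 0.0132), lost without CIV mouse 7 (-0.80, adjusted p 0.277). Against all 17 vehicle mice it was -2.12 ± 0.27 (adjusted p 1.89e-07, with 68.0% of all genes called).

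TAA also lowered Foxa2, to 4.73, 9.28, 6.50, 4.86 and 9.58 CPM, below every Ctrl mouse (-1.58 ± 0.28, adjusted p 0.000119). It was lower with TAA than with ANIT (-1.39 ± 0.30, adjusted p 0.00878, but 0.0538 with library total scaling) and than with MDA (-1.49 ± 0.29, adjusted p 0.00164). CCl4 mice had 9.10, 10.4 and 19.6 CPM (-0.48 ± 0.29, adjusted p 0.241), and without the highest of them, mouse 5, the fall was called (-0.65, adjusted p 0.0384). APAP mice had 6.09, 13.82 and 30.1 CPM (-0.49 ± 0.28), which was called without mouse 6 (-0.81, adjusted p 0.0291). GAL mice, at 15.4, 21.8, 30.0 and 19.2 CPM, were not called against CIP but were higher than CCl4 mice by 0.92 ± 0.24 (adjusted p 0.00869). The 5 sinusoidal endothelial markers summed to 30.8 to 65.5 CPM with ConA, 46.6 to 86.0 CPM with TAA and 60.2 to 83.3 CPM with CCl4, against 95.9 to 164 CPM in Ctrl mice. With TAA 4 of the 5 fell and Pecam1 rose (0.98 ± 0.12), with ConA 3 fell and Pecam1 rose (1.65 ± 0.45), and with CCl4 4 fell. Under library total scaling 3 fell and 1 rose with TAA, 4 fell and none rose with ConA, and none was called with CCl4. Their part in the Foxa2 result was not tested.

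Foxa3 rose with ANIT and ConA and was not called with the other 5 compounds. Ctrl mice had 17.9, 19.9 and 28.5 CPM, CIP mice 19.2 and 17.9 CPM, and CIV mice 23.7 and 11.5 CPM. ANIT mice had 24.7, 48.6, 48.4 and 40.0 CPM, 3 of 4 above every vehicle mouse (0.89 ± 0.16, adjusted p 0.000573). ConA mice had 32.0, 38.8 and 44.9 CPM, all 7 above every vehicle mouse (1.197 ± 0.29, adjusted p 0.0105), although the call was lost without CIV mouse 8 (0.75, adjusted p 0.0555). In the other groups Foxa3 ranged from 10.4 to 38.4 CPM.

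Onecut1 and Prox1 gave fewer calls. Onecut1 was sparse and variable even in Ctrl mice, at 0.436, 2.03 and 16.3 CPM, and it differed with the mouse numbers. Ctrl mice numbered 1 to 4 had 3.07 to 16.3 CPM, those numbered 7 to 12 had 0.436 to 2.03 CPM and those numbered 15 to 18 had 1.90 to 6.54 CPM. It was called with ConA alone, at 2.95, 3.85 and 4.72 CPM against 0.799 and 1.91 CPM in the CIV mice (1.55 ± 0.39, adjusted p 0.0120). That call was lost without CIV mouse 7 (1.08, adjusted p 0.0771) and against all 17 vehicle mice (0.24, adjusted p 0.679). MDA mice had 0.467, 0.878 and 4.56 CPM (-1.53 ± 0.63, adjusted p 0.0665), and without the highest, mouse 1, the fall was called (-2.20, adjusted p 0.0118).

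Prox1, a homeobox factor that acts with HNF4A as a corepressor, fell with TAA and CCl4. Ctrl mice had 11.1, 17.6 and 32.0 CPM, CIP mice 17.5 and 14.2 CPM, and CIV mice 9.16 and 18.1 CPM. TAA mice had 6.12, 10.7, 9.57, 11.9 and 9.22 CPM, 4 of 5 below every Ctrl mouse (-0.85 ± 0.23, adjusted p 0.00460). CCl4 mice had 5.47, 7.76 and 13.5 CPM, all below both CIP mice (-0.95 ± 0.29, adjusted p 0.0333), a call lost without CCl4 mouse 5, 10 or 12 or either CIP mouse (adjusted p 0.0515 to 0.214). Prox1 was called lower with APAP without APAP mouse 11 (-0.70, adjusted p 0.0241) and with GAL without GAL mouse 2 (-0.85, adjusted p 0.0452), and with neither when all mice were kept. Prox1 also marks lymphatic endothelium, whose markers Pdpn, Flt4, Ccl21a and Mmrn1 summed to 5.45 to 6.83 CPM with TAA and 5.57 to 7.67 CPM with CCl4, against 6.91 to 12.83 CPM in Ctrl and 9.90 to 11.7 CPM in CIP mice. Of those tested, 1 of 2 fell with TAA, and 1 of 3 rose and 1 fell with CCl4. Their part in the result was not tested. Prox1 was also lower with TAA than with ANIT (-1.31 ± 0.24, adjusted p 0.00375) and than with MDA (-0.98 ± 0.22, adjusted p 0.00438). The antisense gene Prox1os had a median of 1.74 CPM with CCl4, 1.89 CPM with GAL and 4.70 CPM with TAA, against 6.17 CPM in CIP and 5.25 CPM in Ctrl mice, and reads shared with Prox1 cannot be told apart. As with Onecut1, Ctrl mice numbered 1 to 4 had higher Prox1 (17.6 to 32.0 CPM) than those numbered 7 to 12 (11.1 to 16.3 CPM). All 4 ANIT mice are numbered 1 to 4.

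Counted over the 9 genes, direct comparisons of compounds gave 2 calls for APAP against ANIT (5.98% of all genes called, 3.63% higher and 2.35% lower) and 5 for TAA against ANIT (26.2%, 15.1% higher and 11.1% lower). TAA against MDA gave 5 (30.0%, 15.8% higher and 14.3% lower) and GAL against CCl4 gave 3 (42.5%, 20.3% higher and 22.2% lower). All 5 differences of TAA from ANIT and from MDA were lower with TAA, in Hnf4a, Foxa2, Nr1i2, Nr1i3 and Prox1 both times, and these comparisons share the TAA mice. GAL exceeded CCl4 in Cebpa by 1.00 ± 0.12 (adjusted p 5.63e-05) and in Foxa2, and was below it in Cebpb (-0.66 ± 0.16, adjusted p 0.00596). The Cebpb difference was lost with library total scaling (-0.44, adjusted p 0.0915). Without GAL mouse 2, Nr1i2 (-1.48, adjusted p 0.000451), Nr1i3 (-1.23, adjusted p 0.000434) and Foxa3 (-0.63, adjusted p 0.0159) were also called, and Prox1 was called without CCl4 mouse 1 (0.72, adjusted p 0.0407). TAA against APAP gave 0 of 9 by edgeR (1 at an unadjusted p under 0.05, 1 called by DESeq2, and 2.62% of all genes called, 1.61% higher and 1.01% lower). Without APAP mouse 1, Foxa2 (-1.26, adjusted p 0.0207) and Cebpb (0.75, adjusted p 0.0427) were called there.

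Single mice also decided calls in the other direct comparisons. For APAP against ANIT, leaving out APAP mouse 1 added Cebpb (-1.19) and Prox1 (-0.92), leaving out APAP mouse 11 added Prox1 (-1.13), and leaving out ANIT mouse 1 added Nr1i3 (-1.66). For TAA against ANIT, leaving out TAA mouse 1 added Cebpa (-1.06) and leaving out ANIT mouse 1 added Foxa3 (-0.86) and Cebpb (-0.71). For TAA against MDA, leaving out TAA mouse 1 added Cebpa (-0.80) and leaving out MDA mouse 1 added Onecut1 (1.55). For MDA against APAP, Onecut1 (-2.15 ± 0.65, adjusted p 0.0539) was called without MDA mouse 1 or APAP mouse 1, 2 or 4, and Prox1 (0.83) without APAP mouse 11.

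MDA and ANIT, 2 compounds that injure bile ducts, gave 0 of 9 by edgeR when set against each other, with 3 at an unadjusted p under 0.05 and 0 called by DESeq2. None of all 13360 genes tested was called there either (0%), although 1253 had an unadjusted p under 0.05 and DESeq2 called 186. Without ANIT mouse 1, Cebpb was called (-0.96, adjusted p 0.0414). The largest of the 9 differences in size relative to its error was Hnf4a (-0.61 ± 0.18, adjusted p 0.450), lower with MDA.

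The vehicle groups were compared in the same way. CIP against Ctrl gave 0 of 9 genes by edgeR (0 at an unadjusted p under 0.05, 0 by DESeq2, with 0.0131% of all genes called). CIV against Ctrl also gave 0 of 9 (0 at an unadjusted p under 0.05, 0 by DESeq2, with 0.0263% of all genes called). The SE of these differences was 0.13 to 1.09 on the log2 scale, and the 2 mice per saline group limit them.

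When all 17 vehicle mice served as controls, 35 of 63 tests were called, 29 of them among the 31 above. ANIT kept 6 of 9 (28.0% of all genes called) and MDA 3 (34.2%). APAP had 4 (33.4%), with Cebpb added, and TAA 6 (49.7%), with Hnf4a lost (-0.34, adjusted p 0.0501). CCl4 had 6 (53.4%), with Foxa2 added (-0.78 ± 0.24, adjusted p 0.00728). ConA had 5 (68.0%).

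GAL moved most with this change, from 1 called gene to 5 (52.5% of all genes called). Hnf4a was -0.82 ± 0.14 (adjusted p 2.95e-05), Nr1i2 -1.79 ± 0.28 (adjusted p 9.91e-06), Nr1i3 -1.94 ± 0.28 (adjusted p 3.67e-06) and Cebpb -0.66 ± 0.27 (adjusted p 0.0449), beside Cebpa at -0.92 ± 0.15. The fold changes of these 5 genes against CIP alone had the same sign, and 15 of the 17 controls came by another route. With library total scaling as well, Nr1i2 (-0.92) and Nr1i3 (-1.07) were still called, and Hnf4a (0.04), Cebpa (-0.10) and Cebpb (0.15) were not.

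Other factors of the network, from a list of 18 liver-enriched transcription factors, gave 5 higher and 3 lower with ANIT, 2 and 6 with APAP, 3 and 3 with MDA, 2 and 11 with TAA, 0 and 8 with CCl4, 0 and 7 with GAL, and 2 and 5 with ConA. With library total scaling the counts were 3 higher and 3 lower with ANIT, 3 and 2 with APAP, 2 and 5 with CCl4, 2 and 3 with GAL, and 1 and 9 with ConA. Over all genes this scaling gave 822 higher and 2651 lower with ANIT, 2937 and 1113 with APAP, and 4565 and 1100 with CCl4. It gave 5515 and 844 with GAL, and 1101 and 3752 with ConA. Nr0b2, the bile acid induced repressor SHP, rose with ANIT (1.18 ± 0.35) and MDA (1.09 ± 0.24) and fell with TAA (-3.57 ± 0.33), CCl4 (-2.18 ± 0.42), GAL (-3.12 ± 0.44) and ConA (-5.96 ± 0.59). Klf15, a fasting-responsive activator of gluconeogenic genes, fell with all 7 compounds, with -3.29 ± 0.24 on the log2 scale for TAA. Of 8 nuclear receptor cofactors, at most 3 were called with any compound against the vehicle of its route. With library total scaling 5 were called with GAL, all higher, where 5515 of all 15509 genes were higher and 844 lower. Against all 17 vehicle mice 5 were called with CCl4, 1 higher and 4 lower, where 53.4% of all genes were called. Ppargc1a, the fasting-induced coactivator, rose with MDA (0.82 ± 0.28) and fell with TAA (-1.11 ± 0.40) and GAL (-2.67 ± 0.66).

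The genes whose levels followed each factor most closely over the 57 mice were found among 12241 other genes, by Pearson's r of log2(CPM + 1). These values are descriptions, since the mice share groups, and carry no test. The closest partner of any of the 9 was that of Nr1i2, Fmo5, a flavin monooxygenase (r 0.957). Cebpb was followed by Pim3 (0.902) and Tifa (0.892), Nr1i3 by Hsd17b4 (0.895) and Camk2n1 (0.887), and Hnf4a by Hrg (0.853) and Slc37a4 (0.843), the glucose-6-phosphate transporter.

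Cebpa was followed by the complement gene C2 (0.834) and Slc13a3 (0.808), Foxa2 by Exoc3l2 (0.830) and the endothelial factor gene Sox18 (0.827), and Foxa3 by Thpo (0.795), the thrombopoietin gene, and B4galt1 (0.742). Prox1 was followed by Baat (0.700), which conjugates bile acids, and Inca1 (0.700), while the best for Onecut1 was Rai14 (0.474). Among the 9 genes themselves, the closest pair was Nr1i2 and Nr1i3, with r 0.822 over the 57 mice and 0.185 once each group's mean was removed.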

How the data were processed

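RNA-seq libraries of 57 livers were made with a stranded mRNA kit and read single-end, per the labels' protocols. Estimated counts for each gene were deposited, made by the authors with Salmon 1.6.0 and R 4.1.3 on GRCm39, per the submitters' processing notes. The annotation, library type setting and step from transcripts to genes are not given in the sources used here. Across 9793 single-transcript genes, longer transcripts had lower smallest nonzero values (Spearman's rho -0.949), as a length correction would give, so levels were not compared between genes and counting intervals were not computed.

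Symbols came from GENCODE M21 and matched 51482 of 54307 IDs. Values were rounded to whole numbers and tested with edgeR 4.0.16 in R 4.3.3 (limma 3.58.1): TMM scaling, filterByExpr, quasi-likelihood test, two-sided, each pair of groups fitted by itself without covariates, Benjamini-Hochberg adjustment over all genes tested and a threshold of 0.05. All 9 genes passed the filter in every comparison. SE is the log2 fold change over the square root of F. CPM uses 1 TMM scaling over all mice. The scripts were checked on simulated counts.

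The 9 genes and all lists were chosen with earlier results of these data known. List genes named are at most 4 per list and comparison, the largest changes among those called. Likeness was searched among genes averaging 1 CPM or more. The 2 most alike genes per factor were named, except 1 that is not reported here and the second for Onecut1. The labels number the livers of a group, and p-values measure the spread between these samples. Same-numbered mice of 2 groups did not deviate together (correlations -0.358 to 0.274), so the numbers were not used to pair them. Alternatives were DESeq2 1.42.0, other scalings and filters, 1 fit over all groups, a number block or number range, all 17 vehicle mice as controls, and leaving out each compound or saline mouse in turn (no Ctrl mouse was left out). The combination of all 17 vehicle mice with library total scaling was added after seeing the data.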

Additional observations from a re-analysis of the deposited data

Results flagged for a closer look

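Of 63 groups of levels (9 genes in the 7 compound groups), 9 held a mouse far from the others of its group by Dixon's criterion on CPM. The criterion flags about 1 in 20 by chance when values are normal, which was not checked here. Each flagged value was the highest of its group, and the genes share mice, so the flags are not independent. MDA mouse 1 stood apart in 4 genes: Hnf4a at 291 CPM (others 183 to 221), Cebpa at 94.6 CPM (others 42.5 to 55.2), Nr1i3 at 412 CPM (others 74.6 to 120) and Onecut1 at 4.56 CPM (others 0.467 to 1.66). Its Nr1i2, 39.9 CPM, was the lowest of the MDA group. APAP mouse 1 had Cebpb at 455 CPM (others 44.9 to 84.9). TAA mouse 1 had Cebpa at 68.0 CPM (others 27.2 to 35.01). GAL mouse 2 had Nr1i3 at 55.2 CPM (others 15.2 to 21.1). CCl4 mouse 5 had Foxa2 at 19.6 CPM (others 9.10 to 12.6), and CCl4 mouse 6 had Onecut1 at 11.7 CPM (others 1.19 to 3.89).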

How the results depend on the processing

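Counts are of the 9 genes called, and sign changes between values that were both uncalled are not counted as reversals. RLE scaling and no filter moved no count by over 1.5 times. With DESeq2 the count was 3 for GAL, 4 for APAP against ANIT, 5 for MDA against APAP and 1 for TAA against APAP, and with 1 fit over all groups it was 4, 4, 5 and 2. Calls over all genes rose too: for GAL from 4416 of 15509 to 5668 of 16979 with DESeq2 and 4889 of 18781 with 1 fit (a smaller share), for APAP against ANIT from 826 of 13816 to 2196 of 16482 and 3171 of 18781, for MDA against APAP from 1272 of 13492 to 2283 of 17161 and 3098 of 18781, and for TAA against APAP from 367 of 14013 to 1373 of 17129 and 1812 of 18781. With library total scaling it was 0 for APAP, 2 for CCl4, 0 for APAP against ANIT and 2 for MDA against APAP, where 4050 of 13939, 5665 of 15365, 1433 of 13816 and 997 of 13492 genes were called. With a mean of at least 5 CPM GAL had 2 (3968 of 9264 genes), and against all 17 vehicle mice it had 5 (8014 of 15255). With all 17 and library total scaling together, APAP had 1 (4324 of 14276 genes) and GAL 4 (10103 of 15255), and 5 directions reversed: Foxa3 with GAL (0.59), and Hnf4a (-0.80), Cebpa (-0.61), Onecut1 (-0.25) and Prox1 (-0.87) with ConA. The cause was not tested.

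With the replicate number as a block (replicate block), the count was 1 for ANIT, 0 for APAP, 3 for TAA, 3 for GAL, 0 for APAP against ANIT, 0 for TAA against ANIT, 0 for MDA against APAP and 2 for TAA against MDA. Over all genes this fit called 962 of 14072 for ANIT, 230 of 13939 for APAP, 4869 of 14360 for TAA, 3982 of 15509 for GAL, 117 of 13582 for TAA against ANIT and 1424 of 13705 for TAA against MDA, and 0 for APAP against ANIT and for MDA against APAP. Mice whose number is not shared add nothing to these contrasts, and no block fit was made for CCl4, ConA or GAL against CCl4, which share 1 number. Among mice numbered 1 to 4 alone the count was 3 for ANIT, 0 for APAP and 2 for TAA, where 1688 of 12320, 824 of 13115 and 2689 of 13831 genes were called. Among those numbered above 4 it was 3 for GAL (4929 of 14847 genes). APAP had 3 there (2984 of 14807 genes), but 2 were higher (Foxa3 and Onecut1) and 1 lower (Nr1i2), against 3 lower with all mice. These fits hold fewer mice.

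Leaving out each compound or saline mouse in turn, and no Ctrl mouse, gave 5 to 6 for ANIT, 2 to 5 for APAP, 3 to 3 for MDA, 5 to 7 for TAA, 3 to 5 for CCl4, 1 to 5 for GAL, 4 to 6 for ConA, 0 to 4 for APAP against ANIT, 0 to 1 for MDA against ANIT, 5 to 7 for TAA against ANIT, 1 to 2 for MDA against APAP, 0 to 2 for TAA against APAP, 4 to 6 for TAA against MDA, 3 to 6 for GAL against CCl4 and 0 to 0 for both vehicle comparisons. Calls over all genes moved in these fits too, from 1617 of 17037 to 6483 of 15244 for GAL, from 134 of 14351 to 2088 of 13684 for APAP against ANIT and from 64 of 14367 to 2002 of 13899 for TAA against APAP. Without APAP mouse 1, Cebpb in TAA against APAP reversed from -0.33 to 0.75 (edgeR's quasi-likelihood test, adjusted p 0.0427), and over the mice left out it ranged from -0.50 to 0.75. Onecut1, with 6.59 estimated counts in its lowest mouse, is the gene most limited by depth.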
